A study of Mus musculus with 16 samples.

Results

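The 10 genes described here carry out MHC class I antigen presentation in the mouse: the heavy chains H2-K1 and H2-D1, the light chain B2m, the peptide transporter subunits Tap1 and Tap2, the loading factor Tapbp, the immunoproteasome subunits Psmb8, Psmb9 and Psmb10, and the transactivator Nlrc5. They were chosen by name, and all 10 were found among the 22298 genes counted in every tumor. The counts came from RNA-seq of 16 abdominal tumors grown in 615-line mice from MFC, a mouse forestomach carcinoma cell line. In the vehicle group 8 tumors came from mice given PBS, and in the IL-33 treatment group 8 came from mice given IL-33 at 20 μg/kg. Both groups were labelled wild type, the mice were 6 weeks old, and injections went into the abdominal cavity every 2 days. The study's methods give 4 to 5 mice per group in one run of this model, and the labels do not say which tumor came from which mouse, so the p-values below measure the spread between these 8 and 8 tumors. The question the comparison addresses is whether tumors of IL-33-treated mice held more or less RNA of this pathway.

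Class I molecules display peptides from inside the cell to CD8 T cells. Proteasomes cut proteins, TAP1 and TAP2 pump the peptides into the endoplasmic reticulum, and tapasin (Tapbp) helps to load them onto a heavy chain paired with beta-2 microglobulin (B2m). Interferon-γ, in part through IRF1, switches on most of these genes, including Nlrc5 and the 3 proteasome subunits that replace constitutive ones to form the immunoproteasome. The NLRC5 protein acts at class I promoters together with factors that sit on a short module containing an X2 box and, downstream of it, a Y box.

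Promoter sequences are shown for the genes that such factors act on, since the genes are compared below for how far they moved together. RefSeq (GRCm38.p6) gave promoters for 8 of the 10 genes, all but Tap2 and Nlrc5, and the 250 bases before the start site were searched on both strands. In all, 4 motifs were searched: the X2 box core TGACG, the Y box core CCAAT, which reads ATTGG from the other strand, the pattern GAANNGAAA for an interferon-stimulated element and, for a kappaB element, GGGA and CCC with 3 bases between. Other spellings of these elements were not searched. Capitals below mark every match, written 5′ to 3′ on the strand of the gene, and positions are counted back from the start site, so that -1 is the base just before it. The H2-K1 stretch is chr17:34000348-34000597 on the minus strand, the H2-D1 stretch chr17:35262844-35263093 on the plus strand and the B2m stretch chr2:122147437-122147686 on the plus strand.
H2-K1: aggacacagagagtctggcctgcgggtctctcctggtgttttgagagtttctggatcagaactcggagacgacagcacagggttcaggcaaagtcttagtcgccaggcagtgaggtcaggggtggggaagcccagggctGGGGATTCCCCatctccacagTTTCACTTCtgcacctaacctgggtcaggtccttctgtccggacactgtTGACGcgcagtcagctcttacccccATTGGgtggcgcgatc
H2-D1: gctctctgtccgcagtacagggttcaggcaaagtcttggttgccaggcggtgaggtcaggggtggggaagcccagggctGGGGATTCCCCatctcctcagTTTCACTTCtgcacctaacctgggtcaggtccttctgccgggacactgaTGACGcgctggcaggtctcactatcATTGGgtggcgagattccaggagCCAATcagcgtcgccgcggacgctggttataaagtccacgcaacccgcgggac
B2m: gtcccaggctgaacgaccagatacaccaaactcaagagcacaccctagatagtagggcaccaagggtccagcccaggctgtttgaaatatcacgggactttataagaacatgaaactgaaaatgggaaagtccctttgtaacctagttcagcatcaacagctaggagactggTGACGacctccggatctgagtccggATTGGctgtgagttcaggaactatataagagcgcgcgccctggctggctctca
In all 3 sequences TGACG was followed by ATTGG with the first bases 25 apart, at positions -41 and -16 in H2-K1, -101 and -76 in H2-D1, and -78 and -53 in B2m. Of all 32851 RefSeq promoter entries, 18 (0.0548%) held the pair at this distance, and they belonged to 15 genes. H2-M3, another class I heavy chain gene, was among them, and no other of the 8 genes with a promoter was. The longer capital run in H2-K1 and H2-D1 is a pair of overlapping kappaB matches, a pattern that 4.77% of all promoters held, and the run after it is a match of GAANNGAAA on the other strand, a pattern that 6.31% held. Neither pattern, as spelled here, matched in B2m, Tap1, Tapbp, Psmb8, Psmb9 or Psmb10. The B2m sequence holds gaaactgaaa and gggaaagtccc, which are close to the 2 patterns but are no matches. The lack of a match is thus not the lack of such an element.

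Tap1 and Psmb9 start on opposite strands with 225 bases between their RefSeq starts, and their promoters share this stretch, chr17:34187331-34187555, shown here on the plus strand, the strand of Tap1.
Tap1 and Psmb9: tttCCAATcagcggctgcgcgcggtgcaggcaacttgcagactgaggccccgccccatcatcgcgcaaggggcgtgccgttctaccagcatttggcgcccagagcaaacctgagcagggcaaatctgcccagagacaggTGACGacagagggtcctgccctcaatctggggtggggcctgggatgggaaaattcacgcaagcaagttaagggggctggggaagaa
The capitals mark a CCAAT 222 bases and a TGACG 86 bases before the Tap1 start. Single matches of this kind are common, since CCAAT was found in 33.8% and TGACG in 17.8% of all promoters, and the absence of a match says only that these letters are not in the window.

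The total count per tumor ran from 14139268 to 24290794 for vehicle tumors and from 16569613 to 24288893 for IL-33 tumors, and even the scarcest of the 10 genes, Nlrc5, had at least 244 reads in every tumor. Levels below are CPM, the reads of a gene scaled to the total reads counted in that tumor, so that all tumors have the same total. A pair of tumors stood apart. IL-33 replicate 7 held uterus, oviduct and ovary genes (summed 1786 and 480.9 CPM over the 10 and 8 genes of these lists, against at most 27.4 and 1.49 CPM in any other tumor). In vehicle replicate 4 genes with long exons were low, with long genes (6000 bases or more) 2.09 below short genes (under 2000 bases) on the log2 scale, against -0.85 to 0.30 in the other 15 tumors. Of the epithelial markers expected of a carcinoma line, Krt8 (181 to 975 CPM) and Krt19 (44.5 to 690 CPM) were present in every tumor, whereas Epcam stayed at or under 2.40 CPM and Krt18 at or under 1.83 CPM outside IL-33 replicate 7. Each tumor was a mixture of cells, and in bulk RNA a smaller number of cells of one kind and less RNA per cell cannot be told apart.

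The heavy chains and the light chain were present at high levels in both groups, with no difference past the spread between tumors. H2-K1 (ENSMUSG00000061232, chromosome 17, 33996017 to 34000347, GRCm38) was at 530 CPM in the lowest, 739 in the median and 1365 in the highest vehicle tumor, and at 630, 929 and 1570 CPM in the IL-33 tumors. The groups overlapped over most of their range, and the vehicle mean was exceeded in 5 of 8 IL-33 tumors. With edgeR's quasi-likelihood test, fitted over 16817 genes, the log2 fold change of H2-K1 was 0.10 ± 0.27 (SE, 8 tumors per group; adjusted p = 0.942), and its 95% interval ran from 0.725-fold to 1.59-fold. A log2 fold change is taken here after TMM scaling, which corrects each total for genes that take up much of it, and can differ from the ratio of mean CPM, which was 1.18 for H2-K1.

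H2-D1 (ENSMUSG00000073411, chromosome 17, 35262730 to 35267499), the second classical heavy chain, ranged from 281 to 479.5 CPM in vehicle tumors (median 318) and from 191 to 541 CPM in IL-33 tumors (median 386). The lowest value was that of IL-33 replicate 7, and 5 of 8 in its group exceeded the mean of the vehicle tumors. The fitted log2 fold change was 0.04 ± 0.20 (SE; edgeR adjusted p = 0.969). B2m (ENSMUSG00000060802, chromosome 2, 122147686 to 122153083) was the most abundant of the 10 per length, at 2495 ± 451 CPM per kb of exon (SD, n = 8) among vehicle tumors and 2876 ± 695 among IL-33 tumors, against 283 ± 95.8 and 335 ± 114 for H2-K1. On the CPM scale B2m ranged from 1646 to 2959 (median 2079) in vehicle and from 1283 to 3242 (median 2552) in IL-33 tumors. In 6 of 8 IL-33 tumors B2m exceeded its vehicle mean, and again IL-33 replicate 7 was lowest, yet the groups overlapped and the log2 fold change was 0.13 ± 0.19 (SE; edgeR adjusted p = 0.869, 0.826-fold to 1.46-fold).

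Among the genes that deliver and load peptides, Tap1 had the largest fitted difference of the 10, and it did not pass the test. Tap1 (ENSMUSG00000037321, chromosome 17, 34187553 to 34197225), which forms the peptide pump together with Tap2, was at 73.1 to 353 CPM in vehicle tumors (median 149.8) and 76.8 to 344 CPM in IL-33 tumors (median 213). The highest and the lowest tumor were both vehicle tumors, replicates 7 and 4, so the IL-33 values lay inside the vehicle range, 6 of 8 exceeding the mean of the vehicle tumors. The fitted log2 fold change was 0.39 ± 0.30 (SE; edgeR adjusted p = 0.683), with a 95% interval from 0.843-fold to 2.04-fold.

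Tap2 (ENSMUSG00000024339, chromosome 17, 34203527 to 34216321), its partner subunit, reached 303 CPM in vehicle replicate 7 and 296 CPM in IL-33 replicate 3, while the medians were 108 and 121 CPM. Tap2 exceeded its vehicle mean in 3 of 8 IL-33 tumors, and the log2 fold change was 0.05 ± 0.29 (SE; edgeR adjusted p = 0.977). Tapbp (ENSMUSG00000024308, chromosome 17, 33915899 to 33929292), which bridges the transporter and the heavy chain, ranged from 174 to 510 CPM (median 223) in vehicle and from 132 to 487 CPM (median 245) in IL-33 tumors. The 2 lowest tumors were IL-33 tumors and the highest a vehicle tumor, and the log2 fold change was 0.05 ± 0.26 (SE; edgeR adjusted p = 0.973). The annotation places Zbtb22 (16.4 to 36.9 CPM) on the same strand over 3422 bases of Tapbp, so a part of either count could belong to the other gene. On opposite strands, Tap1 and Psmb9 overlap by 212 bases in this annotation and Patl2 (at most 0.741 CPM) lies across all of B2m. No source used here says whether strand was counted, so reads there cannot be assigned with certainty.

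The immunoproteasome subunits varied more between tumors than the heavy and light chains did, and they did not differ past that spread between the groups. Psmb8 (ENSMUSG00000024338, chromosome 17, 34197721 to 34201454), which takes the place of Psmb5, was at 82.3 to 282 CPM (median 136) in vehicle and 65.9 to 369 CPM (median 117) in IL-33 tumors. Psmb9 (ENSMUSG00000096727, chromosome 17, 34181987 to 34187764), which takes the place of Psmb6, was at 58.8 to 227 CPM (median 100.3) and 43.8 to 264 CPM (median 111). For both genes 1 IL-33 tumor lay above and 1 below every vehicle tumor, and the log2 fold changes were -0.06 ± 0.36 for Psmb8 and 0.11 ± 0.35 for Psmb9 (SE; edgeR adjusted p = 0.977 and 0.954). Psmb10 (ENSMUSG00000031897, chromosome 8, 105935735 to 105938444), which takes the place of Psmb7, spread most of all 10 genes, from 36.8 CPM in IL-33 replicate 6 to 358 CPM in IL-33 replicate 3, a 9.72-fold span. Its medians were 92.3 CPM in vehicle and 84.3 CPM in IL-33 tumors, and its log2 fold change was -0.25 ± 0.48 (SE; edgeR adjusted p = 0.912, 0.418-fold to 1.70-fold).

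Nlrc5 (ENSMUSG00000074151, chromosome 8, 94434356 to 94527272), the transactivator, was the scarcest of the 10 per length, at 7.62 ± 3.04 CPM per kb (SD, n = 8) in vehicle and 9.04 ± 5.74 in IL-33 tumors. In CPM it ranged from 17.3 to 101 (median 61.0) and from 28.1 to 163 (median 60.4). The 2 highest tumors, IL-33 replicates 4 and 8, exceeded every vehicle tumor, and the lowest was vehicle replicate 4, while the medians of the groups nearly coincided. The log2 fold change was 0.20 ± 0.33 (SE; edgeR adjusted p = 0.886).

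**Figure D1:**
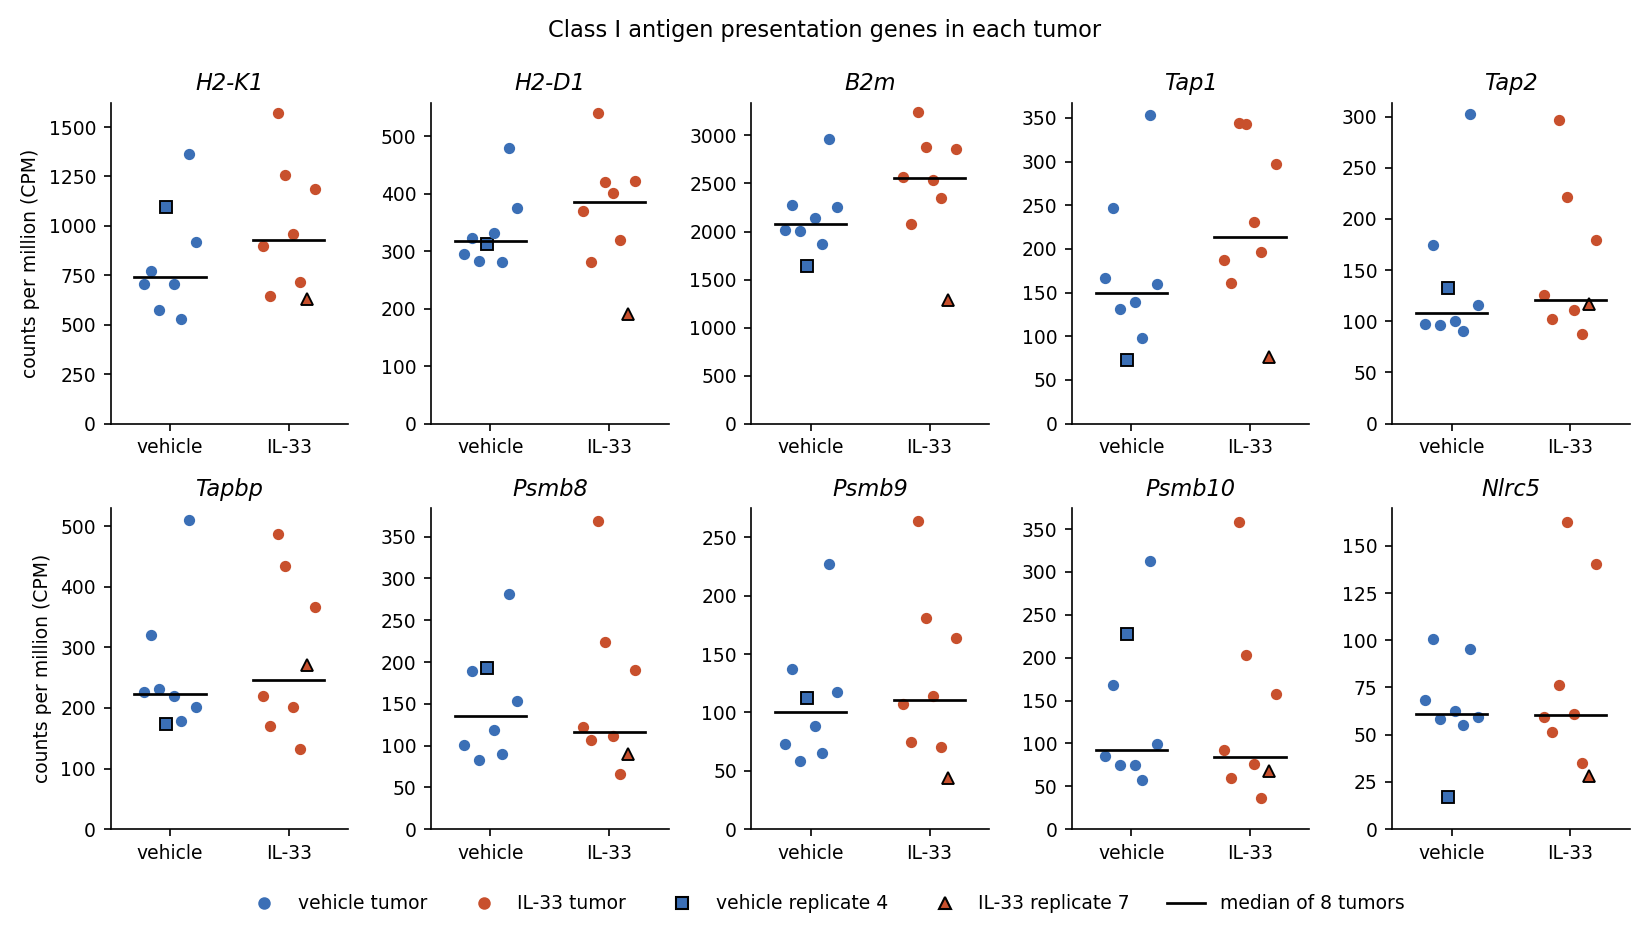
Each point is one tumor and the vertical axis is its level in CPM (linear, from 0) for each of the 10 genes, vehicle tumors at left and IL-33 tumors at right, with a black line at the median of 8. The groups overlap for all 10 genes; vehicle replicate 4 (square) is the lowest point of Tap1 and Nlrc5, and IL-33 replicate 7 (triangle) the lowest of H2-D1, B2m and Psmb9.

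Across the pathway, no gene was called between the groups. With edgeR 0 of 10 had an adjusted p under 0.05 and 0 of 10 an unadjusted p under 0.05, where 0.0% and 11.2% of all 16817 genes tested did. That 11.2% rested largely on IL-33 replicate 7: at the unadjusted threshold 1680 genes were higher with it and 289 without it. DESeq2 also gave 0 of 10 on either threshold (0.0% and 4.11% of all genes). Under limma voom with quality weights, which counts tumors that stand apart for less, 0 of 10 passed the adjusted and 3 of 10 the unadjusted threshold, H2-K1 (log2 fold change 0.40, adjusted p = 0.798), B2m (0.26, adjusted p = 0.766) and Tap1 (0.58, adjusted p = 0.766), all higher, where 0.0% and 5.74% of all genes did. The log2 fold change was above 0 in 8 of 10 genes, with a median of 0.08 against 0.06 over all genes tested, and its standard error was larger than the fold change itself in 9 of 10. The 95% intervals leave room for changes of some size: across the 10 genes their lower ends ran down to 0.418-fold (Psmb10) and their upper ends up to 2.04-fold (Tap1).

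Without IL-33 replicate 7 the picture shifted for the transporter and the light chain. Tap1 then had a log2 fold change of 0.54 ± 0.24 (SE; edgeR adjusted p = 0.964) and was the 1 gene of 10 under an unadjusted p of 0.05, where 4.12% of 15803 genes were. B2m moved to 0.25 ± 0.12 (SE; edgeR adjusted p = 0.964), still over an unadjusted p of 0.05, with mean levels of 2146 ± 388 CPM in 8 vehicle and 2644 ± 384 CPM in 7 IL-33 tumors (SD). Of the 10 log2 fold changes 9 were then above 0, with a median of 0.18 against -0.01 over all genes, and Psmb8 went from -0.06 to 0.05. Without vehicle replicate 4 all 10 were above 0 and 0 of 10 had an unadjusted p under 0.05 (9.39% of 16773 genes), H2-K1 going from 0.10 to 0.31 and Psmb10 from -0.25 to 0.07. With both tumors left out, B2m alone had an unadjusted p under 0.05 (log2 fold change 0.29 ± 0.10, SE; edgeR adjusted p = 0.9998; 4.19% of 15744 genes), while Tap1 stood at 0.47 and did not. Tap1 was also the 1 gene of 10 under that threshold without vehicle replicate 7, its highest tumor (0.61; 11.4% of 16764 genes).

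**Figure D2:**
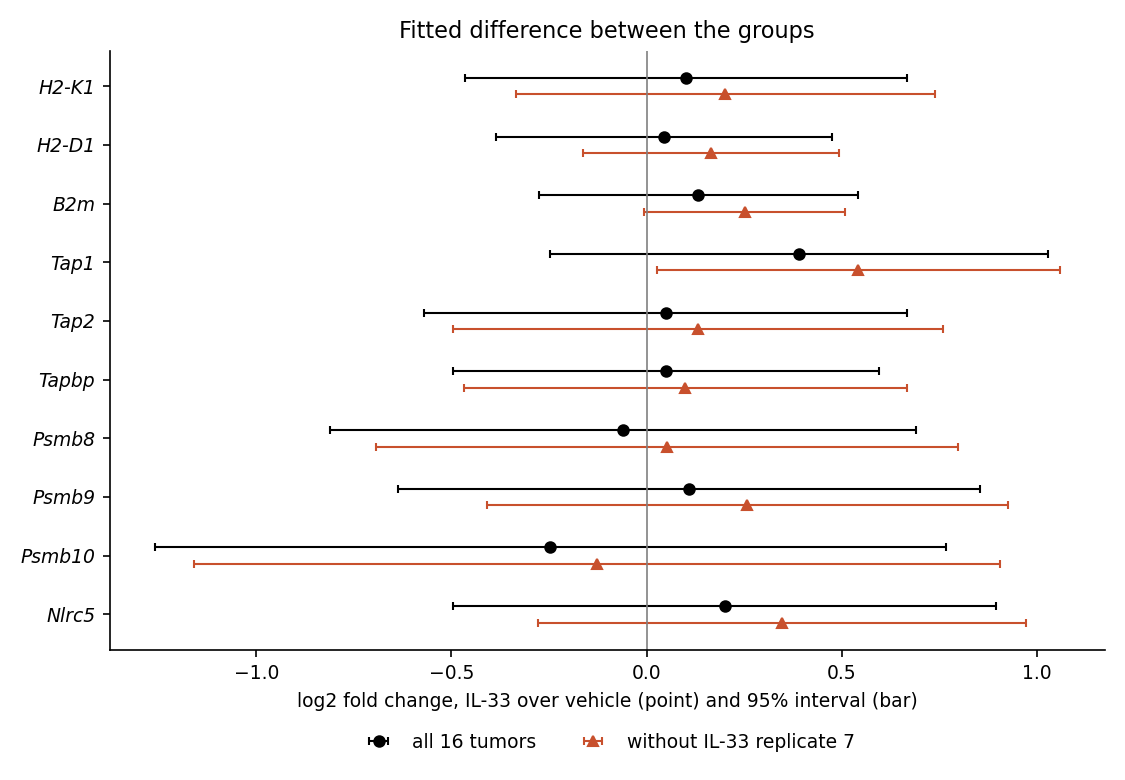
The horizontal axis is the fitted log2 fold change of IL-33 over vehicle for each of the 10 genes, with its 95% interval, over all 16 tumors (black circles) and without IL-33 replicate 7 (triangles). All 10 black intervals include 0, and among the triangles only the interval of Tap1, from 0.03 to 1.06, does not.

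Ratios within a tumor need no scaling to the total count, and none of the 5 ratios tested differed between the groups. A length pattern such as that of vehicle replicate 4 can still shift a ratio of genes with unlike exon lengths. Its part in the ratios was not tested. The balance of inducible to constitutive subunit, as a ratio of reads, was 0.877 to 1.56 (median 1.11) in vehicle and 0.764 to 2.17 (median 1.14) in IL-33 tumors for Psmb8 to Psmb5. For Psmb9 to Psmb6 it was 0.476 to 1.36 (median 0.816) and 0.434 to 1.38 (median 1.08), and for Psmb10 to Psmb7 0.679 to 1.83 (median 0.771) and 0.353 to 1.76 (median 0.752). The inducible subunit had more reads than its counterpart in 11, 6 and 6 of 16 tumors. These reads were not scaled to exon length. The joined exons of Psmb8 and Psmb5 have 3381 and 899 bases, those of Psmb9 and Psmb6 3660 and 1872. Those of Psmb10 and Psmb7 have 1705 and 3421 bases. A ratio above or below 1 therefore does not say which subunit had more transcripts. The differences in mean log2 ratio, IL-33 minus vehicle, were 0.11, 0.23 and -0.16, with two-sided exact permutation p of 0.577, 0.382 and 0.626 (adjusted over the 5 ratios, 0.783 for each).

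H2-K1 had more reads than H2-D1 in all 16 tumors, at 1.89 to 3.50 times (median 2.39) in vehicle and 2.25 to 3.30 times (median 2.62) in IL-33 tumors. The highest ratio was in vehicle replicate 4, and the group difference was 0.14 on the log2 scale (exact permutation p = 0.287, adjusted 0.783), or 0.21 without that tumor (exact permutation p = 0.0632, adjusted 0.316). B2m had 1.17 to 2.35 times the reads of both heavy chains together in vehicle and 1.54 to 2.26 times in IL-33 tumors, with a group difference of -0.02 (exact permutation p = 0.911, adjusted 0.911). Without IL-33 replicate 7 the Psmb9 to Psmb6 difference was 0.39 (exact permutation p = 0.0974, adjusted 0.487).

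**Figure D3:**
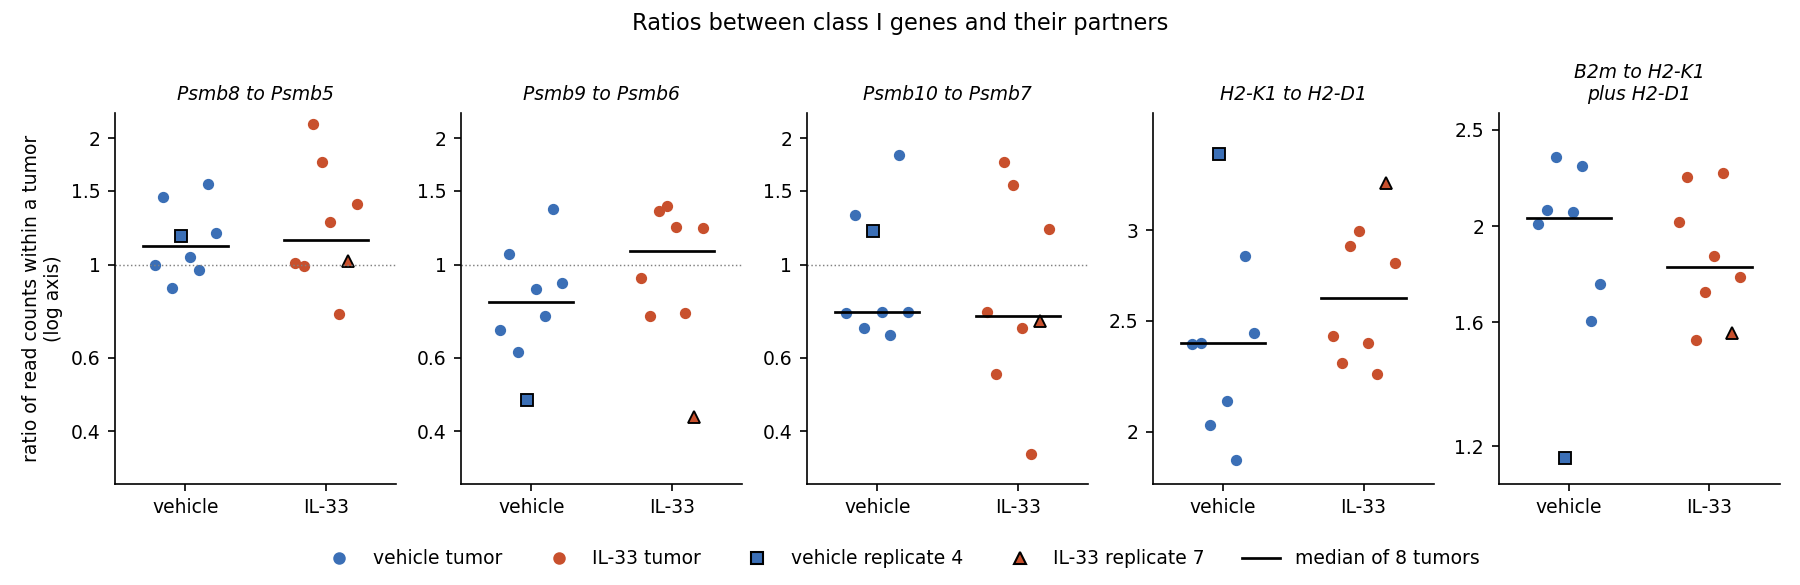
Each point is the ratio of reads of the named genes within one tumor (logarithmic axis), by group, with a line at the median of 8 tumors and, for the proteasome subunits, a dotted line at a ratio of 1. The groups overlap in all 5 panels; H2-K1 exceeds H2-D1 in all 16 tumors, and vehicle replicate 4 has the highest H2-K1 to H2-D1 ratio and the lowest ratio of B2m to both heavy chains.

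The tumors differed from each other far more than the groups did. Between the highest and the lowest tumor B2m spanned 2.53-fold, H2-D1 2.83-fold, H2-K1 2.96-fold, Tap2 3.44-fold, Tapbp 3.86-fold, Tap1 4.84-fold, Psmb8 5.60-fold, Psmb9 6.02-fold, Nlrc5 9.42-fold and Psmb10 9.72-fold. The order of the tumors was much alike from gene to gene. IL-33 replicate 3, vehicle replicate 7 and IL-33 replicate 4 were among the 5 highest tumors for all 10 genes, IL-33 replicate 8 for 9 and vehicle replicate 2 for 6. At the other end, vehicle replicate 6 was among the 5 lowest for all 10, IL-33 replicate 7 for 8 and vehicle replicate 3 for 7. Vehicle replicate 4 had no fixed place, with ranks from the third highest to the lowest. Nlrc5 went least with the rest: its Pearson r over 16 tumors with the mean of the 10 scaled genes, itself included, was 0.61, against 0.83 to 0.99 for the other 9.

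The same 5 tumors, 2 vehicle and 3 IL-33, were the 5 highest for Ifng, which encodes interferon-γ, for Irf1 and Ciita, which act downstream of it, and for Ptprc (CD45), which marks leukocytes. Ifng was at 0.920 to 3.32 CPM in these 5 and at 0 to 0.412 CPM in the other 11 tumors, where it had at most 10 reads. Ptprc was at 144 to 306 against 11.6 to 84.0 CPM. For 5 of the 10 class I genes, Tap1, Tap2, Tapbp, Psmb9 and Nlrc5, these 5 tumors lay above all 11 others, an order that 597 of 16817 genes (3.55%) had. Tapbp, for instance, was at 321 to 510 CPM against 132 to 271 CPM, and Nlrc5 at 76.1 to 163 against 17.3 to 68.6 CPM. For H2-K1, H2-D1, B2m, Psmb8 and Psmb10 the ranges of the 5 and the 11 met, with 4 of the 5 among the 5 highest.

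**Figure D4:**
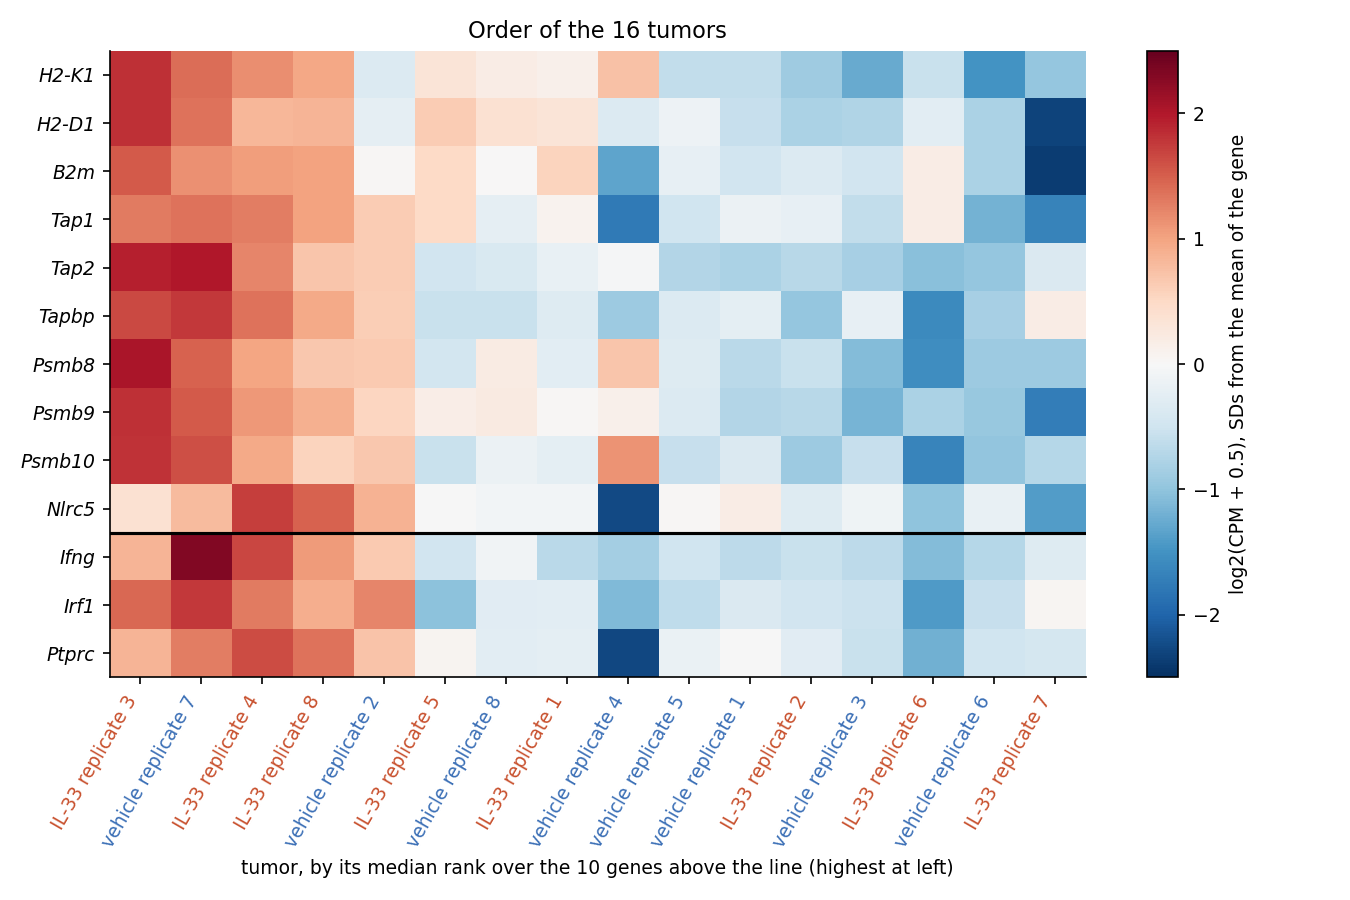
Columns are the 16 tumors, ordered by their median rank over the 10 class I genes, rows are these genes with Ifng, Irf1 and Ptprc under the line, and colour is log2(CPM + 0.5) in SDs from the mean of the gene. The 5 columns at left, 3 IL-33 tumors and 2 vehicle tumors, are also the 5 highest for each of the 3 genes under the line.

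Other readings moved in the same tumors, and their part in the order was not tested. The summed level of 6 leukocyte markers was 734 to 1231 CPM in these 5 and 220 to 545 CPM in the others, and that of 8 markers of cross-presenting dendritic cells 147 to 190 against 33.3 to 106 CPM. For 8 CD8 T cell markers (58.4 to 219 against 14.6 to 80.0 CPM), 6 NK cell markers and 8 macrophage markers, 4 of the 5 tumors were among the 5 highest, and for 6 B cell markers 3 of the 5. Between the groups these sums overlapped, with leukocyte markers at 286 to 1183 CPM (median 430) in vehicle and 220 to 1231 CPM (median 519) in IL-33 tumors, and 0 of these 42 markers had an unadjusted p under 0.05 by edgeR, against 11.2% of all genes tested. With IL-33 replicate 7 left out, 1 of the 6 NK cell markers was under it, where 4.12% of all genes were. Epithelial markers summed to 236 to 530 CPM in the 5 tumors and 494 to 1546 CPM in the 11, and none of the 5 was among the 5 highest. Outside IL-33 replicate 7 this sum is almost wholly Krt8 and Krt19, and scarcer markers of the list ran otherwise. There Cdh1 was highest in IL-33 replicate 3 (3.01 CPM) and Epcam in IL-33 replicate 4 (2.40 CPM), both among the 5. IL-33 replicate 3 and vehicle replicate 7, the highest tumors for 9 of the 10 genes, also had the lowest long-gene level after vehicle replicate 4, at -0.85 and -0.57.

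As these 5 tumors lay apart from the other 11 in Ifng and Ptprc, no correlation over all 16 was tested. The size of 5 was noticed in the data, and the highest tumors of the 2 genes were also the same at 3, 4 and 14. For the class I genes the gap was narrow or absent, as for Tap1 (at least 247 against at most 230 CPM), and 5 of the 10 had none. Within the 11 tumors, 20 pairs of a class I gene with Ifng or Ptprc were computed on log2(CPM + 0.5). These 11 are what is left without the 5 tumors highest in Ifng and Ptprc, so the range of both was cut. Ifng was at 0 to 0.412 CPM there, with at most 10 reads. A lack of correlation within the 11 therefore says little about the full range. None of the 20 passed the adjustment on Pearson's r. On ranks only Nlrc5 with Ptprc passed (rho 0.86, permutation p = 0.00129, adjusted 0.0258), with r at 0.87 (permutation p = 0.00553, adjusted 0.111), which dropped to 0.46 without the 2 tumors farthest from the median of Ptprc, vehicle replicate 4 and IL-33 replicate 6, so that the relation on r rested on those tumors. Tapbp had an r of 0.62 with Ifng (permutation p = 0.0451, adjusted 0.451) and a rho of 0.45 (permutation p = 0.165, adjusted 0.659), and H2-K1 an r of -0.31 with Ptprc (permutation p = 0.363, adjusted 0.687).

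The genes whose order over the 16 tumors was most like that of the 10 were named by the highest Pearson r with their scaled mean, as a description. H2-T22, a class I heavy chain that is not one of the classical ones, came first (r = 0.96, 134 to 499 CPM), and H2-Q6, another, was among them (r = 0.94, 3.64 to 12.5 CPM). Slfn1 (0.96), Slfn2 (0.95), both of the Schlafen family, Ly6i (0.95), the aminopeptidase Lap3 (0.95), the histone acetyltransferase Hat1 (0.95), the nucleotidase Nt5c3 (0.95), the exosome subunit Exosc2 (0.95) and the replication factor Gins1 (0.94) made up the rest. For all 10 the highest tumor was IL-33 replicate 3 or vehicle replicate 7. H2 genes have near-identical copies, so reads of H2-K1, H2-D1, H2-Q and H2-T genes may have been split between them or lost by the counting.

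Of the other genes of the pathway, 2 of 87 tested were under an unadjusted p of 0.05 with edgeR, where 11.2% of all genes were. Both figures depended on IL-33 replicate 7: with it left out, 5 of 87 (5.75%) were, where 4.12% of all genes were. With limma 11 of 87 (12.6%) were, where 5.74% of all genes were. Of these 11, 9 were higher and 2, Calr and Pdia3, lower. Of 19 constitutive proteasome and activator genes, 0 had an unadjusted p under 0.05 by edgeR, against 9.99% of all genes higher and 1.17% lower. All 19 had a log2 fold change below 0, with a median of -0.18, but 12 of 19 were above 0 without vehicle replicate 4 (median 0.05) and 17 of 19 with limma (median 0.09). Psmb5 and Psmb6, the counterparts of Psmb8 and Psmb9, were at -0.26 ± 0.22 and -0.31 ± 0.28 (SE), the assembly factor Pomp at -0.39 ± 0.30 and the alpha subunit Psma3 at -0.20 ± 0.20 (edgeR adjusted p = 0.718, 0.736, 0.667 and 0.781). Of 10 trimming and loading genes 1 was under that threshold, and it was lower. Calr, the chaperone calreticulin that holds the heavy chain in the loading complex, was at 1133 to 1588 CPM in vehicle and 788 to 1518 CPM in IL-33 tumors, 7 of the 8 IL-33 tumors falling short of the vehicle mean (log2 fold change -0.41 ± 0.18, SE; edgeR adjusted p = 0.418). Calr stood at -0.32 without IL-33 replicate 7, still under an unadjusted p of 0.05, and at -0.31 without vehicle replicate 4, no longer under it.

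Of the 22 other class I and class I-like genes 20 were in the files and 16 were tested, 0 of them with an unadjusted p under 0.05, 14 with a log2 fold change above 0 and a median of 0.32. The 9 higher genes of limma were H2-M3, H2-Q4, H2-Q6, H2-T10, H2-T22 and Hfe from this list and Klra2, Klra8 and Klra17 from the receptors below. H2-Q4, a heavy chain outside the classical pair, was at 100.3 to 395 CPM in vehicle and 184 to 461 CPM in IL-33 tumors (log2 fold change 0.39 ± 0.22, SE; edgeR adjusted p = 0.534), and without IL-33 replicate 7 it passed the unadjusted but not the adjusted threshold (edgeR adjusted p = 0.964). Hfe, a class I-like protein of iron control, stood at 0.40 ± 0.22 (SE; edgeR adjusted p = 0.526), and the lipid-presenting Cd1d1 at 1.12 ± 0.58 (SE; edgeR adjusted p = 0.493), a value that rested on 26.7 CPM in IL-33 replicate 7 against at most 4.54 CPM in vehicle tumors. Of 26 interferon and transcription factor genes 0 passed the unadjusted threshold, with a median of 0.02; the kinase Jak2 came closest at 0.31 ± 0.15 (SE; edgeR adjusted p = 0.465), with its highest level in IL-33 replicate 7. Of 16 tested receptors that read class I molecules 1 passed, the NK cell receptor gene Klra8, which had only 2 reads over 8 vehicle and 14 over 8 IL-33 tumors (edgeR adjusted p = 0.418). The related Klra2 was at 2.40 to 26.0 CPM in vehicle and 2.28 to 48.2 CPM in IL-33 tumors (log2 fold change 0.78 ± 0.49, SE; edgeR adjusted p = 0.601). Without IL-33 replicate 7 it stood at 0.97 and passed the unadjusted but not the adjusted threshold (edgeR adjusted p = 0.964).

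In vehicle replicate 4 the longest of these genes were low, but below that length the order of the 10 did not follow it. Of the 10 class I genes, Nlrc5 and Tap1 have the longest exons (8493 and 5476 bases, all exons of a gene joined) and were farthest below the median of the other 7 vehicle tumors, at 17.3 against 62.5 CPM and 73.1 against 160 CPM. Psmb10 (1705 bases) was farthest above, at 227 against 85.6 CPM, while B2m, the shortest with 860 bases, was below, at 1646 against 2143 CPM. Among genes of similar length, Tapbp (3628 bases) was below at 174 against 227 CPM and Psmb9 (3660 bases) above at 112 against 88.3 CPM. Ptprc, with 18313 bases, was at 11.6 against 68.6 CPM, so the lowest Ptprc and the lowest Nlrc5 came from the same tumor. How much of its place in the orders above this length pattern accounts for was not tested.

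**Figure D5:**
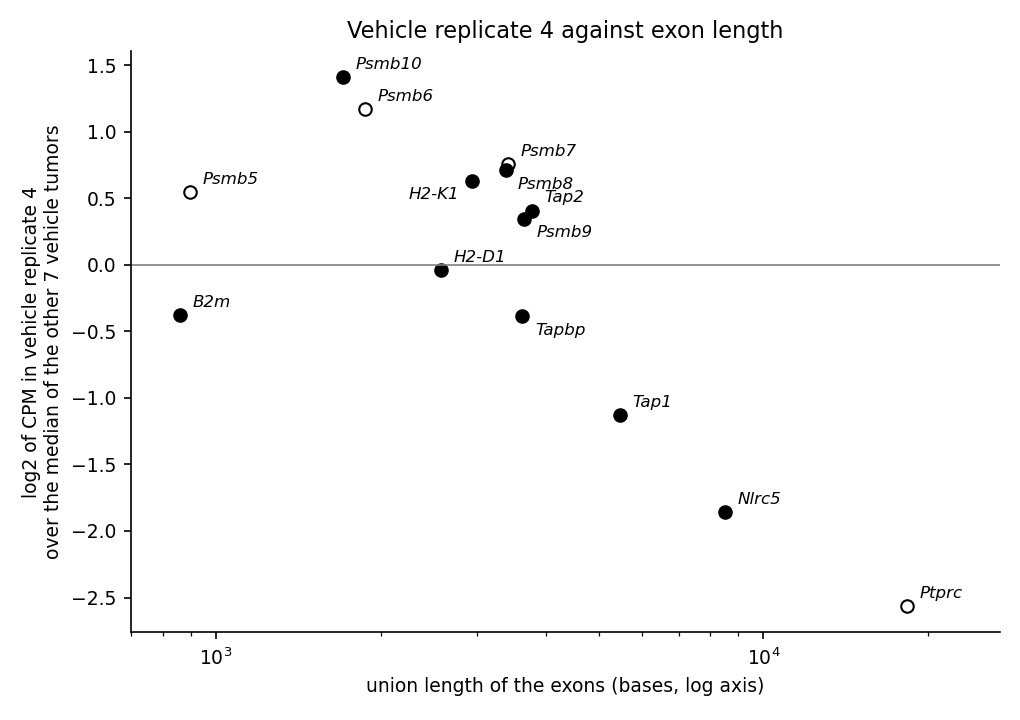
The horizontal axis is the joined exon length of a gene in bases (logarithmic) and the vertical axis the log2 of its CPM in vehicle replicate 4 over the median of the other 7 vehicle tumors, for the 10 class I genes (filled) and Psmb5, Psmb6, Psmb7 and Ptprc (open). The longest genes, Tap1, Nlrc5 and Ptprc, lie at -1.13, -1.86 and -2.56, and Psmb10 lies at 1.41.

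In IL-33 replicate 7, the tumor with reproductive tract genes, the class I genes were low but not equally so. H2-D1 (191 CPM), B2m (1283 CPM) and Psmb9 (43.8 CPM) had their lowest value of all 16 tumors there, and H2-K1 was at 630 CPM and Tap1 at 76.8 CPM. Tapbp, at 271 CPM, was instead the sixth highest, and Tap2, at 117 CPM, was near the IL-33 median of 121 CPM. Its fibroblast marker sum, 14253 CPM, was the highest of the 16 tumors and its summed constitutive proteasome level, 2023 CPM, the lowest, and the part of this mixture in the class I values was not tested.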

How the data were processed

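Polyadenylated RNA of 8 vehicle and 8 IL-33 abdominal tumors was sequenced. The authors deposited, for each tumor, raw read counts per gene without normalization. Per the submitters' processing notes, HISAT2, featureCounts and mm10 were used, with no version, strand setting or annotation release given. The reference genome is of C57BL/6J mice, another strain than the 615-line. How well reads of the 615-line H2-K1 and H2-D1 genes map to it was not tested, and their levels and ratio depend on that. Gene identifiers were paired with symbols, coordinates and exon lengths from GENCODE M21 (GRCm38), which named 22255 of 22298 genes. Groups and replicate numbers came from the labels. The smallest chi-square per degree of freedom between any 2 libraries was 9.12, for IL-33 replicates 4 and 8. No pair of libraries thus held the same counts within sampling noise. Whether those 2 tumors came from the same mouse is not said in the labels.

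A sum of 10 counts across the tumors was required, and the 16817 genes that reached it were tested with edgeR 4.0.16 in R 4.3.3 (TMM, glmQLFit, glmQLFTest, Benjamini-Hochberg over all genes tested). The alternatives were DESeq2 1.42.0, upper-quartile scaling, no filter, filterByExpr, the replicate number as a block, limma 3.58.1 voom with quality weights, and each tumor left out in turn. CPM used the total count. Ratios within tumors used counts plus 0.5, tested over all 12870 assignments of 8 of 16 tumors. Correlations used log2(CPM + 0.5) and 100000 permutations. Promoters came from RefSeq (GRCm38.p6). The tumors with high Ifng and Ptprc were noticed in the data. A further gene and a promoter motif are not reported here. The genes named outside the 10 are the 4 of each pathway list with the smallest p and the 10 most like the class I genes. The genes under limma's threshold, the holders of the promoter pair and Irf1 and Ciita were named after their values were seen. The class I genes, lists and tests were chosen with earlier results of these data known. Counting error was small beside the spread between tumors, except for genes with few reads.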

Additional observations from a re-analysis of the deposited data

Results flagged for a closer look

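In the vehicle group of 8 tumors, vehicle replicate 7 lay far above the other 7 in Tap2 (302.815 CPM), Tapbp (510.218 CPM) and Psmb9 (227.183 CPM), with a gap to the next tumor of 0.607, 0.564 and 0.533 of the whole range of the group, where Dixon's 95% critical value for 8 tumors is 0.526. Of 30 group values looked at, 3 were beyond that value, and chance flags about 1 in 20. The 3 values come from the same tumor, which was also among the highest in Ifng and Ptprc, so they are not 3 separate signs.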

How the results depend on the processing

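Adjusted calls were 0 of 10 class I genes under all settings. At an unadjusted p under 0.05 the count was 0 with edgeR, DESeq2, upper-quartile scaling, no filter and filterByExpr, and 3 with limma voom with quality weights, where Psmb8 (0.22) and Psmb10 (0.15) turned positive. Leaving out 1 tumor gave 0 to 1 genes, the 1 being Tap1 without vehicle replicate 7 (0.61) or IL-33 replicate 7 (0.54). With IL-33 replicate 7 and vehicle replicate 4 both left out, added after seeing the data, the count was 1 (B2m), with Psmb8 at 0.25 and Psmb10 at 0.19. Directions of the small fold changes depended on single tumors: over the 16 omissions the log2 fold change ran from -0.030 to 0.31 for H2-K1, -0.053 to 0.16 for H2-D1, 0.07 to 0.25 for B2m, 0.29 to 0.61 for Tap1, -0.16 to 0.27 for Tap2, -0.11 to 0.24 for Tapbp, -0.37 to 0.14 for Psmb8, -0.13 to 0.31 for Psmb9, -0.67 to 0.074 for Psmb10 and -0.020 to 0.35 for Nlrc5. The low end was reached without IL-33 replicate 3 for all of these but Nlrc5 (without IL-33 replicate 4). The cause was not tested. The log2 ratios ran from -0.0019 to 0.21 for Psmb8 to Psmb5, from 0.13 to 0.39 for Psmb9 to Psmb6, from -0.31 to 0.017 for Psmb10 to Psmb7, from 0.087 to 0.21 for H2-K1 to H2-D1 and from -0.11 to 0.030 for B2m to the heavy chains, with no ratio called.

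Of 87 other pathway genes 2 were under an unadjusted p of 0.05 (11.2% of all genes were), against 3 with DESeq2 (4.11%), 4 of 92 with no filter (11.2%), 1 of 80 with filterByExpr (5.02%) and 11 with limma (5.74%). Leaving out 1 tumor gave 1 to 8, the 8 without vehicle replicate 7 (11.4%), 5 without IL-33 replicate 7 (4.12%), 4 without vehicle replicate 2 and 1 without vehicle replicates 4, 5, 6 or 8 or IL-33 replicate 5, and leaving out both tumors named above gave 5. Of 20 correlations within 11 tumors 0 passed on r, and the count was also 0 on TMM-scaled CPM, with a pseudocount of 2 CPM and with vehicle replicate 4 dropped, but 1 with IL-33 replicate 7 dropped.

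Same-numbered vehicle and IL-33 tumors did not deviate together in a regular way (r from -0.32 to 0.35, 1 of 8 best matched with its own number). The numbers were used here as names of tumors. The labels do not say whether they pair tumors, and this check cannot settle it. With the replicate block 0 of 10 class I genes and 1 of 87 other pathway genes were under an unadjusted p of 0.05, where 1.89% of all 16817 genes were.

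The number of reads set no limit for the 10 genes, each with at least 244 in every tumor. The gene overlaps and near-identical H2 copies given above are separate limits. Ifng with 10 or fewer reads in 11 tumors and Klra8 with 16 reads in all are limited by counting.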
